A study of Mus musculus with 43 samples.

Results

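Serpina3n, Lcn2, Saa3, Hp, Mt1, Mt2, Clu and Gpx3 are 8 mouse genes known from the acute-phase and stress responses. They were found by matching the Ensembl identifiers of the 57010 genes in the deposited count table to these symbols, and each of the 8 had 1 row. The group was chosen by measured levels, since Serpina3n, Clu and Gpx3 stood clearly higher in cardiomyocytes 3 days after myocardial infarction, so that contrast is described below with no test. Serpina3n, Lcn2, Saa3, Hp, Clu and Gpx3 encode secreted proteins, whereas Mt1 and Mt2 encode metallothioneins, which act inside cells.

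The study set mice with a Vegfa stop-gained allele, Q150X, against wild-type mice. CRISPR/Cas9 editing was used to make the allele as a model of a human VEGFA variant, and the labels mark the mutant mice as HO without spelling out the zygosity. Bulk RNA came from intact heart tissue, from cardiomyocytes (CM) and from endothelial cells (EC), in uninjured mice, called homeostasis in the labels, and after myocardial infarction (MI), the death of heart muscle that follows loss of its blood supply. Strain, sex, age, the way cells were isolated and whether mice at homeostasis had sham surgery are not stated in the sources used here. At homeostasis, hearts of Q150X and of wild type gave 3 libraries each. The hearts taken 7 days after MI gave 4 each, and those taken 30 days after MI gave 4 for Q150X but 3 for wild type. For endothelial cells there were 2 libraries of each genotype at day 3 and 3 of each at homeostasis. Cardiomyocytes gave 3 libraries in each of the same 4 groups. The labels do not say that libraries of a group came from separate animals, so p-values measure the spread between these libraries, which may be technical.

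The 43 libraries held 25035490 to 45243608 counts. Levels are given as CPM, counts scaled to a common library total, and fold changes as log2 values with their standard error (SE) after scaling for composition. A change is called when edgeR's quasi-likelihood test gave a Benjamini-Hochberg adjusted p under 0.05 over all genes tested in that comparison. Statements that groups did or did not overlap only describe their libraries. The share of all genes free of overlap was not counted in any comparison. Vegfa ranges of both genotypes overlapped at homeostasis, with 128 to 576 CPM in Q150X hearts against 182 to 605 CPM in wild-type hearts, and counts per gene do not show which allele was transcribed. Library 1 of homeostasis hearts stood apart in both genotypes, with summed atrial myocyte markers of 2343 CPM in Q150X and 2864 CPM in wild type against 27.8 to 50.1 CPM in the other 4. Heart library 4 of wild type at day 7 held 493 CPM of placental Tpbpa. Among EC libraries, number 2 of Q150X at day 3 held 2013 CPM of lymphocyte markers against 12.5 to 15.5 CPM in the other 3 of that day. The 4 EC libraries of day 3 had 390 to 1422 CPM of Xist and at most 0.352 CPM of Y-linked Ddx3y, whereas the 6 of homeostasis had at most 1.23 CPM of Xist and 201 to 263 CPM of Ddx3y, and in EC the effect of time cannot be told apart from that of sex. The main results that rest on these libraries are also given without them. The defining markers were high in CM, where 7 cardiomyocyte markers summed to 40520 to 58300 CPM, and in EC at homeostasis, where 7 endothelial markers summed to 10000.0 to 12230 CPM. At day 3 the endothelial sums were 5839 and 6096 CPM in wild-type EC. In Q150X EC they were 1118 and 2683 CPM, below the monocyte and macrophage sums of 3603 and 4498 CPM. Smooth muscle and pericyte markers summed to 4539 to 5795 CPM in Q150X EC and 3900 to 5410 CPM in wild-type EC at homeostasis. Their day 3 sums were 230 and 649 CPM in Q150X and 1737 and 1910 CPM in wild type. The part of those cells in the EC values was not tested.

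The acute-phase response is the release of proteins that follows injury or infection, mostly by the liver but also by other tissues. Interleukin-6 and related cytokines drive it through STAT3, and interleukin-1 through NF-kappaB and C/EBP factors. Metallothionein genes respond to zinc, to glucocorticoids and to oxidative stress, and their promoters carry metal response elements that the zinc sensor MTF1 binds. Clusterin and plasma glutathione peroxidase are known for protection against protein and peroxide stress, and Lcn2 and Saa3 as products of inflamed tissue.

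RefSeq promoter windows of the GRCm38.p6 build, 250 bases before and 50 after the start, were at hand for 6 of the 8 genes, with Hp and Clu missing from the table. The Mt1 and Mt2 windows are shown because both of these neighbouring genes were called higher in hearts at day 7. Capitals mark each metal response element core, TGCNCNC on either strand.
Mt1, chr8:94178839-94179138, plus strand: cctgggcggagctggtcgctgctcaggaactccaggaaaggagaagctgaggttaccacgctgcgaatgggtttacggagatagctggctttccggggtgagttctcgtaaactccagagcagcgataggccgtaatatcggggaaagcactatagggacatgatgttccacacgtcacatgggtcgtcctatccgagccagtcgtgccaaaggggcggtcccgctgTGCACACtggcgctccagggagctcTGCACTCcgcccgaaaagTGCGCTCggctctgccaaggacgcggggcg
Mt2, chr8:94172368-94172667, plus strand: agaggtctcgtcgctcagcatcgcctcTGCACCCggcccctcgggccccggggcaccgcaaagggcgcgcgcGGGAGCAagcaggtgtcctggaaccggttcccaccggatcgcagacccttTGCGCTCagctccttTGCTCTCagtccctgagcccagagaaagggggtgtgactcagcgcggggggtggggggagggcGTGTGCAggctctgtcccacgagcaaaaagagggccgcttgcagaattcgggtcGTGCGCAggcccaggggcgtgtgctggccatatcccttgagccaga
Mt1 held 3 such cores, a number reached by 7.1% of 32851 promoters of the same length, and Mt2 held 6, a number reached by 0.23%. The windows of Saa3, which had the largest fold changes of the 8 genes in hearts, and of Serpina3n, which was called in every heart and EC comparison with homeostasis, are shown with capitals for the C/EBP core, TTNNGNAA on either strand.
Saa3, chr7:46715627-46715926, minus strand: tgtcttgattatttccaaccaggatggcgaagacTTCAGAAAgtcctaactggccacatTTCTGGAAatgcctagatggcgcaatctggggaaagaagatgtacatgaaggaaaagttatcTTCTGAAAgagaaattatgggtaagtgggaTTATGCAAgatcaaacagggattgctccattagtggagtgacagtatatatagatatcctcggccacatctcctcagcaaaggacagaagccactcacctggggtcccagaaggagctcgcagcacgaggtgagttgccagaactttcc
Serpina3n, chr12:104406458-104406757, plus strand: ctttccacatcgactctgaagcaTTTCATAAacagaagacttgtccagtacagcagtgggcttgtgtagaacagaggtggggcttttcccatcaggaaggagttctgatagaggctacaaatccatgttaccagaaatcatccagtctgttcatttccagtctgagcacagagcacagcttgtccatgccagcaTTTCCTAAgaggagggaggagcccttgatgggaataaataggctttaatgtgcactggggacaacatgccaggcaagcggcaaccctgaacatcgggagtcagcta
Saa3 held 4 C/EBP cores, which 0.85% of promoters reach, and Serpina3n held 2, which 13.59% reach. The NF-kappaB motif, not shown in capitals, matched 4 times in the Serpina3n window, a number reached by 6.65% of promoters. Mt1 and Gpx3 held 2 such matches each, which 27.36% reach. Lcn2 held 1, which 50.79% reach, and Saa3 and Mt2 held 0. No capitalised match overlapped a match of another motif searched, those being the STAT and NF-kappaB motifs besides these cores. The STAT motif TTCNNNGAA was in none of the 6 windows and in 8.3% of all promoters. A match of letters describes the window and is no evidence of binding.

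Counting limits touch several of the genes. In GENCODE vM21 the antisense gene Gm45774 overlaps 432 of the 588 exonic bases of Mt2, which is 73.5%, and whether counting used strand is not stated in the labels. Mt2 had 0 to 4.06 CPM over the 43 libraries and Gm45774 0 to 1.72 CPM, whereas Mt1 had 10.8 to 329 CPM, so Mt2 counts are uncertain. Of the 31-base words of Serpina3n exons, 21.6% also occur in other genes, its relatives Serpina3f, Serpina3g and Serpina3c among them, and for Saa3 the share was 7.4%. Bulk RNA cannot tell more cells of a type from more RNA per cell.

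**Figure D1:**
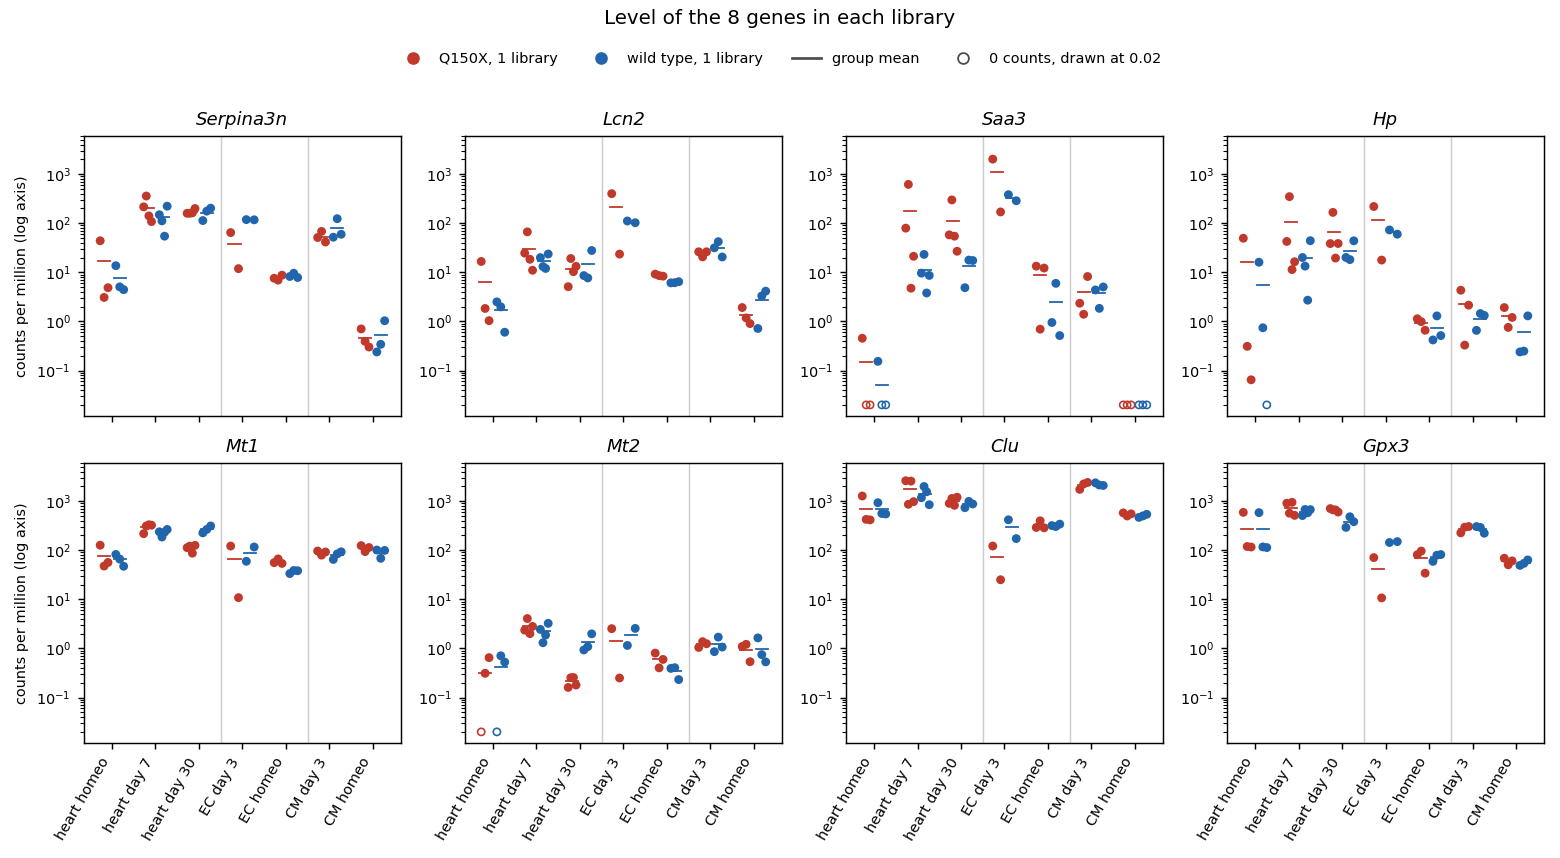
Level of each gene in every library, in CPM on a log axis, with Q150X in red left of wild type in blue, short lines for group means and open circles for libraries with 0 counts. Saa3 has 0 counts in the 6 cardiomyocyte libraries of homeostasis and reaches 2020.0 CPM in 1 endothelial library of day 3, while Mt1 stays between 10.8 and 329 CPM.

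In cardiomyocytes, the protease inhibitor gene Serpina3n had 41.5 to 68.2 CPM in the 3 Q150X libraries of day 3, against 0.302 to 0.705 CPM at homeostasis. Wild-type CM showed the same separation, with 52.0, 124 and 59.6 CPM at day 3 against 0.240, 0.343 and 1.03 CPM at homeostasis. The log2 fold changes were 6.61 ± 0.57 in Q150X and 6.80 ± 0.56 in wild type, and no library of day 3 reached down to the homeostasis range. Lcn2, which encodes the iron-siderophore carrier lipocalin 2, had 26.2, 20.7 and 26.2 CPM at day 3 against 1.92, 1.18 and 0.905 CPM at homeostasis in Q150X CM. In wild-type CM it had 31.6, 42.1 and 20.6 CPM at day 3 against 0.719, 3.30 and 4.14 CPM. Here too the days did not overlap, and the log2 fold changes were 3.94 in Q150X and 3.16 in wild type. Saa3, a serum amyloid A made outside the liver, had no count in any of the 6 CM libraries of homeostasis. At day 3 it had 2.35, 1.40 and 8.22 CPM in Q150X CM and 4.38, 1.85 and 5.04 CPM in wild-type CM. With a floor of 3 counts over each homeostasis group, these are at least 116-fold higher in Q150X and at least 114-fold higher in wild type, the Q150X bound being 54.9-fold without library 3.

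The more abundant secreted genes moved less in CM. Clu, the gene of the extracellular chaperone clusterin, had 1730.0, 2231 and 2393 CPM at day 3 against 575, 497 and 550 CPM at homeostasis in Q150X CM. Its wild-type CM values were 2349, 2119 and 2078 CPM at day 3 against 465, 498 and 538 CPM at homeostasis. The log2 fold changes of Clu were 1.70 ± 0.12 in Q150X and 1.81 ± 0.12 in wild type, and every day 3 library lay above every homeostasis library. Gpx3, the gene of the plasma glutathione peroxidase, had 226, 294 and 303 CPM at day 3 against 68.5, 50.5 and 60.5 CPM at homeostasis in Q150X CM. In wild-type CM it had 303, 291 and 222 CPM at day 3 against 49.1, 53.9 and 63.3 CPM. The Gpx3 log2 fold changes were 1.93 ± 0.15 in Q150X and 1.97 ± 0.15 in wild type, again with no overlap. By a log2 fold change above 1, which was part of the choice of these genes, 5 of the 8 were higher in each genotype, beside 13.6% of 15169 genes in Q150X and 9.66% in wild type.

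Hp and the metallothionein genes did not share this pattern. Hp, which encodes haptoglobin, the binder of free haemoglobin, had 0.330 to 4.33 CPM in Q150X CM of day 3 against 0.757 to 1.92 CPM at homeostasis, and 0.658 to 1.45 CPM in wild-type CM of day 3 against 0.240 to 1.30 CPM. Mt1 had 79.3 to 96.1 CPM at day 3 against 93.6 to 124 CPM at homeostasis in Q150X CM, with a log2 fold change of -0.58, and 64.8 to 92.7 CPM against 68.4 to 101 CPM in wild-type CM, with one of -0.44. Mt2 log2 fold changes were 0.10 in Q150X and 0.04 in wild type. The ranges of the days overlapped for these 3 genes in both genotypes. Per kilobase of exon, Clu was the most abundant of the 8 in Q150X CM of day 3 at 616 ± 101 CPM per kb, and Saa3 and Hp were the lowest at 1.53 ± 1.42 and 1.41 ± 1.25 CPM per kb (SD, n = 3).

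Markers of other cells moved with the CM contrast, all 8 fibroblast and all 8 monocyte and macrophage genes having counts in each library of day 3. The 8 fibroblast markers summed to 390 to 683 CPM in Q150X and 277 to 503 CPM in wild type at day 3, against 14.6 to 43.4 CPM in Q150X and 32.7 to 65.1 CPM in wild type at homeostasis. Summed over 8 genes, monocyte and macrophage markers reached 144 to 378 CPM in Q150X and 118 to 244 CPM in wild type at day 3, against 2.27 to 3.48 CPM and 4.31 to 9.66 CPM at homeostasis. Neutrophil markers reached 1.48 to 5.27 CPM in Q150X and 1.89 to 4.04 CPM in wild type at day 3, against at most 0.201 CPM at homeostasis. The 5 atrial myocyte markers summed to 249 to 724 CPM in Q150X and 280 to 518 CPM in wild type at day 3, against 19.2 to 47.7 CPM in Q150X and 14.8 to 22.3 CPM in wild type at homeostasis. Nppa, the gene of atrial natriuretic peptide, made up 249 to 723 CPM in Q150X and 279 to 517 CPM in wild type at day 3, whereas Myl7, an atrial myosin light chain gene, was at most 0.114 CPM in the 6 libraries of day 3 and Sln, an atrial regulator of calcium uptake, had no count in them. The part of other cells in the CM values was not tested.

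Between genotypes, none of the 7 genes tested in CM at homeostasis and none of the 8 tested at day 3 was called, beside 0.0% of 15169 genes in both comparisons. Log2 differences of Q150X over wild type ran from -1.197 for Lcn2 to 0.98 for Hp at homeostasis, and from -0.60 for Serpina3n to 0.90 for Hp at day 3. Clu gave the narrowest estimates, 0.01 ± 0.12 at homeostasis and -0.10 ± 0.12 at day 3. At an unadjusted p under 0.05, edgeR passed 2009 genes at homeostasis and 254 at day 3, and DESeq2 called 258 and 2 genes and voom with library weights 8 and 1, with no member among them. Saa3 could not be compared at homeostasis because it had 0 counts.

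**Figure D2:**
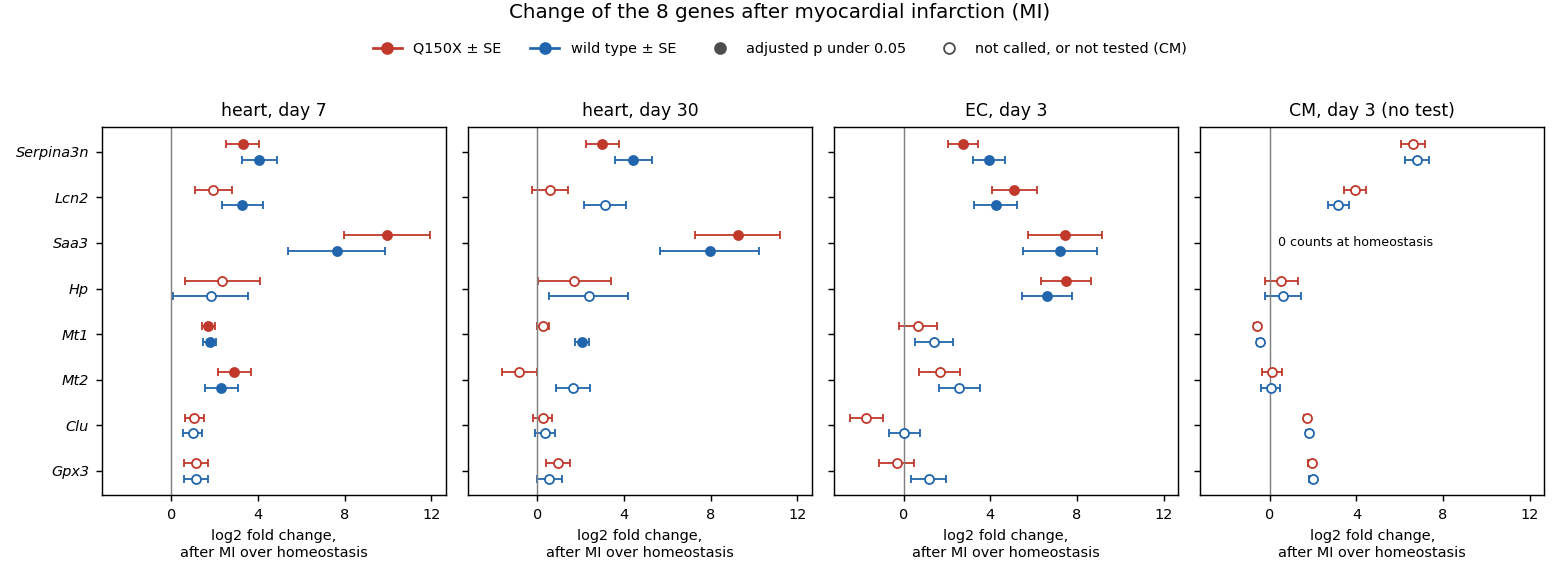
Log2 fold changes ± SE after MI over homeostasis for the 8 genes in Q150X (red) and wild type (blue), with filled points for an adjusted p under 0.05 and open points for values not called or, in cardiomyocytes, not tested. Serpina3n and Saa3 are filled in each heart and EC panel, and Hp is filled in EC alone.

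In whole hearts at day 7, 4 of the 8 genes rose in Q150X and 5 rose in wild type, beside 26.0% and 13.7% of 17845 genes called in those comparisons, and none fell. Over all genes 13.8% were called higher and 12.3% lower in Q150X, and 7.65% higher and 6.07% lower in wild type. The median log2 fold change of the 8 was 2.15 in Q150X and 2.07 in wild type, against 0.06 and 0.05 over all genes. Serpina3n had 216, 358, 141 and 108 CPM in Q150X hearts of day 7 against 43.9, 3.08 and 4.87 CPM at homeostasis. Wild-type hearts gave 149, 112, 54.5 and 222 CPM at day 7 against 13.7, 5.06 and 4.45 CPM. All day 7 libraries lay above all homeostasis libraries, and the log2 fold changes were 3.29 ± 0.78 in Q150X (edgeR adjusted p = 0.0054) and 4.07 ± 0.82 in wild type (edgeR adjusted p = 0.0036). Without homeostasis library 1 and the other libraries that stood apart, the Q150X value was 5.50 ± 0.60 and the wild-type value 4.37 ± 0.57.

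Saa3 in Q150X hearts of day 7 had 79.4, 617, 4.76 and 21.2 CPM, against 0.455, 0 and 0 CPM at homeostasis. In wild-type hearts it had 9.63, 23.2, 3.799 and 8.65 CPM at day 7, against 0.154, 0 and 0 CPM. The groups did not overlap, and library 2 of Q150X was far above its group. From 14 counts over the Q150X homeostasis group the pooled ratio was 1208 (exact counting interval 720.0 to 2210.0), and from 4 counts in wild type it was 220 (85.6 to 807), where the intervals cover counting error only. The tests gave log2 fold changes of 9.96 ± 1.998 in Q150X (edgeR adjusted p = 0.0019) and 7.63 ± 2.26 in wild type (edgeR adjusted p = 0.034), though voom with library weights called neither and its highest adjusted p was 0.504. Without the libraries that stood apart no count was left at homeostasis, and the levels were at least 3787-fold higher in Q150X and at least 212-fold higher in wild type, with a floor of 3 counts over the group. Library 2 of Q150X at day 7 held 19918 of the 23669 Saa3 counts of its group, and without it the pooled ratio of 1208 was 254 and the bound of 3787 was 796. In wild type, leaving out library 2 of day 7 took the ratio to 147 and the bound to 121. The wild-type difference was not called in the fit without the libraries that stood apart (edgeR adjusted p = 0.169).

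Lcn2 had 24.6, 66.7, 18.4 and 11.03 CPM in Q150X hearts of day 7 against 16.7, 1.84 and 1.04 CPM at homeostasis, and 20.0, 13.1, 12.01 and 23.6 CPM in wild-type hearts of day 7 against 2.51, 1.98 and 0.603 CPM. The Q150X groups overlapped through homeostasis library 1 and the wild-type groups did not. Its log2 fold change of 3.28 ± 0.94 passed in wild type (edgeR adjusted p = 0.029) and that of 1.94 ± 0.85 did not in Q150X (adjusted p = 0.10), where it was 4.19 ± 0.98 without the libraries that stood apart (adjusted p = 0.0070). The wild-type call was lost in 7 of 15 alternatives, among them each removal of a homeostasis library. Hp had 42.6, 348, 11.4 and 16.4 CPM in Q150X hearts of day 7 against 49.5, 0.312 and 0.0649 CPM at homeostasis. In wild-type hearts it had 20.0, 13.4, 2.71 and 44.1 CPM against 16.1, 0.744 and 0 CPM. Homeostasis library 1 of each genotype lay inside the day 7 range, and the log2 fold changes of 2.36 ± 1.72 and 1.82 ± 1.73 were not called (adjusted p = 0.34 and 0.53). With those libraries left out, Hp was 8.88 ± 2.41 in Q150X (adjusted p = 0.016) and 4.86 ± 2.20 in wild type (adjusted p = 0.15). Library 1 also held the highest adipocyte marker sums of homeostasis, 53.4 CPM in Q150X and 74.8 CPM in wild type against at most 0.679 CPM in the other 4, and the part of that in Hp was not tested.

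Mt1, a metallothionein gene whose protein binds zinc and copper, rose at day 7 in both genotypes. It had 217, 310.0, 329 and 323 CPM in Q150X hearts against 126, 47.5 and 56.4 CPM at homeostasis, and 237, 185, 232 and 264 CPM in wild-type hearts against 81.9, 65.9 and 47.1 CPM. No day 7 library overlapped homeostasis, with log2 fold changes of 1.70 ± 0.30 in Q150X (edgeR adjusted p = 0.00052) and 1.78 ± 0.30 in wild type (edgeR adjusted p = 0.00075), and the calls held in all 15 alternatives of each. Without the libraries that stood apart Mt1 was at 2.32 ± 0.26 in Q150X and 1.88 ± 0.26 in wild type. Mt2 had 2.36, 4.06, 2.00 and 2.81 CPM in Q150X hearts of day 7 against 0, 0.312 and 0.649 CPM at homeostasis. Wild-type hearts had 2.44, 1.31, 1.87 and 3.24 CPM of it against 0, 0.708 and 0.528 CPM. The days did not overlap, and Mt2 rose with Mt1, by 2.91 ± 0.78 in Q150X (edgeR adjusted p = 0.0099) and by 2.31 ± 0.76 in wild type (edgeR adjusted p = 0.048), and the wild-type call was lost in 9 of 15 alternatives. The wild-type Mt2 value was 1.53 ± 0.46 without the libraries that stood apart.

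Clu had 2594, 860, 2553 and 974 CPM in Q150X hearts of day 7 against 1269, 424 and 414 CPM at homeostasis, and 1170.0, 1978, 1546 and 843 CPM in wild-type hearts against 927, 558 and 547 CPM. Gpx3 had 904, 567, 944 and 512 CPM in Q150X hearts of day 7 against 590, 119 and 116 CPM at homeostasis, and 507, 674, 578 and 670.1 CPM in wild-type hearts against 581, 116 and 113 CPM. For both genes homeostasis library 1 reached into the day 7 range while libraries 2 and 3 lay below all of it. Neither gene was called: Clu had log2 fold changes of 1.05 ± 0.44 in Q150X and 0.99 ± 0.44 in wild type, and Gpx3 of 1.15 ± 0.55 in both. Without the libraries that stood apart both were called in both genotypes, Clu at 1.86 ± 0.41 in Q150X and 1.42 ± 0.42 in wild type, and Gpx3 at 2.45 ± 0.23 in Q150X and 2.27 ± 0.23 in wild type (the highest edgeR adjusted p of the 4 was 0.031). With those libraries left out all 8 genes rose in Q150X hearts at day 7, against 4 with every library kept. Over all genes 28.8% were then called, 16.9% higher.

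**Figure D3:**
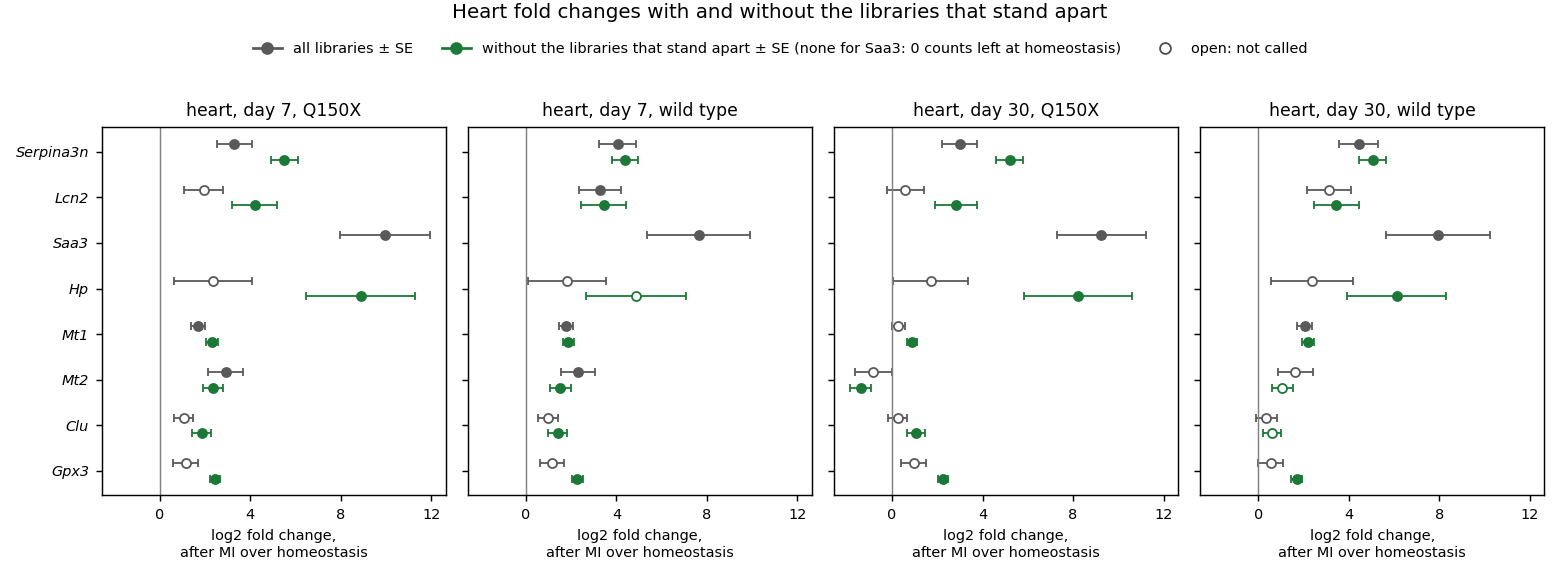
Log2 fold changes ± SE of hearts after MI over homeostasis with all libraries (grey) and without the libraries that stood apart (green), with filled points for an adjusted p under 0.05. The Q150X values of Gpx3 at day 7 are 1.15 with all libraries and 2.45 without, and Saa3 has no green point because the homeostasis libraries left hold 0 counts.

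Around the 8 genes, 10 of the 19 acute-phase companions tested rose and none fell in Q150X hearts at day 7, and 6 of 19 rose in wild type, where the shares over all genes are 13.8% higher in Q150X and 7.65% in wild type. Of the metal and peroxide companions, 5 of 16 rose and 1 fell in each genotype. Gclm, a subunit of the enzyme that limits glutathione synthesis, rose to 57.9 ± 4.7 CPM in Q150X hearts against 15.03 ± 3.7 CPM at homeostasis (SD, n = 4 and 3), a log2 fold change of 1.73 ± 0.16 (edgeR adjusted p = 1.3e-06). Catalase, Cat, rose by 0.90 ± 0.15 in Q150X and by 1.08 ± 0.15 in wild type on the log2 scale. Mtf1, the zinc sensor that acts on metallothionein promoters, fell by 0.55 ± 0.15 in Q150X and by 0.59 ± 0.15 in wild type, calls lost in 3 of 15 alternatives in Q150X and in 1 of 15 in wild type. Of the 17 interleukin-6, STAT3 and C/EBP inputs, 7 rose in Q150X and 2 in wild type, and of the 12 receptors and partners 3 rose in Q150X and 2 in wild type. In the same hearts the summed fibroblast markers were 2349 to 4178 CPM in Q150X and 1502 to 3278 CPM in wild type, against 658 to 1249 CPM and 741 to 1870.0 CPM at homeostasis, and the monocyte and macrophage markers 493 to 1336 CPM and 288 to 706 CPM against 177 to 308 CPM and 240 to 388 CPM. Their part in the changes was not tested.

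At day 30, 2 of the 8 genes rose in Q150X hearts and 3 in wild-type hearts over homeostasis, beside 29.7% and 8.93% of genes called. The higher calls were 15.6% in Q150X and 5.45% in wild type, and the lower calls 14.2% and 3.49%. Serpina3n stayed high, with 159, 160, 163 and 199 CPM in Q150X hearts and 113, 176 and 203 CPM in wild-type hearts. The homeostasis libraries, given above, all lay below, and the log2 fold changes were 2.99 ± 0.77 in Q150X (edgeR adjusted p = 0.0079) and 4.43 ± 0.85 in wild type (edgeR adjusted p = 0.0048). Without the libraries that stood apart Serpina3n was at 5.19 ± 0.59 in Q150X and 5.06 ± 0.59 in wild type. Saa3 had 57.9, 298, 54.4 and 26.9 CPM in Q150X hearts and 4.87, 17.8 and 17.4 CPM in wild-type hearts. Its log2 fold changes over homeostasis were 9.24 ± 1.97 in Q150X (edgeR adjusted p = 0.0026) and 7.95 ± 2.28 in wild type (edgeR adjusted p = 0.040), the wild-type call being lost in 9 of 14 alternatives. Pooled counts gave ratios of 709 (423 to 1298) in Q150X and 274 (107 to 1007) in wild type. Library 2 of Q150X at day 30 held 8235 of the 12487 counts of its group, and the ratio was 315 without it. Against the homeostasis libraries other than number 1, which had 0 counts, Saa3 was at least 2223-fold higher in Q150X (989-fold without library 2 of day 30) and at least 248-fold higher in wild type, where the difference was not called in that setting (edgeR adjusted p = 0.113).

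Of the other secreted genes, Lcn2 had 5.11, 19.1, 10.3 and 13.2 CPM in Q150X hearts and 8.59, 7.70 and 27.8 CPM in wild-type hearts of day 30. Hp had 38.5, 166, 19.5 and 38.6 CPM in Q150X hearts and 20.1, 18.2 and 43.8 CPM in wild-type hearts. Neither passed in either genotype, with Lcn2 at 0.58 ± 0.82 in Q150X and 3.13 ± 0.97 in wild type (edgeR adjusted p = 0.63 and 0.052) and Hp at 1.70 ± 1.67 in Q150X and 2.37 ± 1.83 in wild type (edgeR adjusted p = 0.47 and 0.41). Without the libraries that stood apart both were called in both genotypes, Lcn2 at 2.83 ± 0.93 in Q150X and 3.45 ± 0.99 in wild type, and Hp at 8.22 ± 2.39 in Q150X and 6.11 ± 2.20 in wild type (the highest edgeR adjusted p of the 4 was 0.049). Library 2 of Q150X, the highest of its group for both genes, also held the highest epicardial and mesothelial marker sum of all hearts, 416 CPM against 64.9 to 207 CPM in the other 3 of its group, and 73.3 CPM of adipocyte markers. The part of those cells was not tested. Clu had 818 to 1196 CPM in Q150X hearts and 734 to 985 CPM in wild-type hearts, and Gpx3 598 to 704 CPM in Q150X hearts and 291 to 480 CPM in wild-type hearts. Gpx3 was not called with all libraries (0.95 ± 0.54 in Q150X, 0.55 ± 0.57 in wild type) and was called without those that stood apart (2.26 ± 0.23 in Q150X, 1.69 ± 0.23 in wild type, highest edgeR adjusted p = 3.3e-05). In that setting all 8 genes were called in Q150X hearts, 7 of them higher and Mt2 lower, and 5 were called in wild-type hearts, all higher. Over all genes 44.3% were then called in Q150X and 34.0% in wild type, of all genes tested 23.6% higher in Q150X and 18.7% higher in wild type.

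Mt1 separated the genotypes at day 30. It had 112, 121, 87.0 and 126 CPM in Q150X hearts and 225, 264 and 311 CPM in wild-type hearts, with no overlap. The log2 difference of Q150X from wild type was -1.41 ± 0.28 (edgeR adjusted p = 0.030), which made Mt1 the 1 gene of the 8 to be called, beside 0.443% of all genes, 0.151% higher and 0.291% lower. The call was lost in 7 of 15 alternatives, among them the replicate number as a block, no filter on low counts and the fits without library 1 or 3 of either genotype, and the adjusted p ranged up to 0.205. Mt2 had 0.161, 0.254, 0.256 and 0.1799 CPM in Q150X hearts and 0.9303, 1.09 and 1.98 CPM in wild-type hearts. Its difference of -2.79 ± 0.76 also came with no overlap but was not called (edgeR adjusted p = 0.12), while DESeq2, voom and the fit without the libraries that stood apart called it. The share of all genes free of overlap between these groups was not counted. Antisense Gm45774 had 0 to 0.543 CPM in Q150X hearts and 1.51 to 1.72 CPM in wild-type hearts of day 30, so its part in the Mt2 difference cannot be told apart from Mt2 itself.

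Over time in Q150X hearts, Mt1 and Mt2 were the 2 members that fell at day 30 relative to day 7, beside 31.4% of genes called, 14.9% higher and 16.5% lower. The day 30 values of 87.0 to 126 CPM for Mt1 and 0.161 to 0.256 CPM for Mt2 lay below the day 7 values of 217 to 329 CPM and 2.00 to 4.06 CPM. Mt1 fell by 1.44 ± 0.27 (edgeR adjusted p = 0.00071) and Mt2 by 3.74 ± 0.73 (edgeR adjusted p = 0.00098) on the log2 scale, and both calls held in all 16 alternatives. Without the libraries that stood apart Clu was called too, at -0.81 ± 0.31 (edgeR adjusted p = 0.048). In wild-type hearts none of the 8 was called between these days, beside 30.0% of genes, with Mt1 at 0.27 ± 0.28 and Mt2 at -0.67 ± 0.69, and without the libraries that stood apart Gpx3 was called at -0.58 ± 0.19 (edgeR adjusted p = 0.022). Relative to homeostasis, Mt1 at day 30 was at 0.26 ± 0.29 in Q150X (adjusted p = 0.52) and rose by 2.05 ± 0.32 in wild type (edgeR adjusted p = 0.00076), and without the libraries that stood apart it was called in both, at 0.88 ± 0.24 in Q150X and 2.20 ± 0.26 in wild type. The interaction, which tests whether the change since homeostasis differs between genotypes, was -1.78 ± 0.42 for Mt1 and was not called by edgeR (adjusted p = 0.26) but was by DESeq2 (adjusted p = 0.026).

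**Figure D4:**
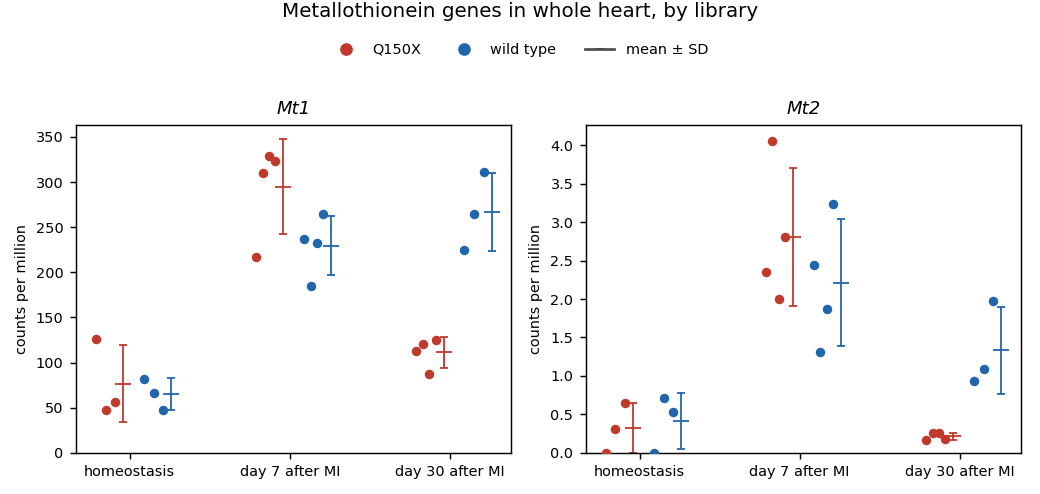
Mt1 and Mt2 in whole hearts by library, in CPM, at homeostasis, day 7 and day 30 after MI, with Q150X in red left of wild type in blue and mean ± SD beside the points. At day 30 the Q150X points of Mt1 lie between 87.0 and 126 CPM and the wild-type points between 225 and 311 CPM.

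No other difference between genotypes was called in hearts. At homeostasis none of the 8 genes passed, beside 0.0% of genes, with log2 differences from -0.31 for Mt2 to 2.10 for Lcn2, which was at 0.17 ± 1.11 without library 1 of either genotype. At day 7 none passed, again beside 0.0%, and the largest difference was that of Saa3, 3.97 ± 1.20 (edgeR adjusted p = 1.0), whose groups overlapped. Unadjusted p-values under 0.05 were reached by 504 genes at homeostasis and 561 at day 7, and DESeq2 called 3 and 4 genes and voom none, with no member among them. At day 30 Saa3 was 2.93 ± 1.29 (edgeR adjusted p = 0.32) and Gpx3 0.63 ± 0.54 (edgeR adjusted p = 0.64). Each had all Q150X libraries above all wild-type libraries, and the share of all genes that separate in this way was not counted. The interactions of genotype with MI called none of the 8 at day 7 or day 30, beside 0.0% in both with edgeR, where 588 and 1724 genes had an unadjusted p under 0.05 and DESeq2 called 1 and 54. At day 30 the summed monocyte and macrophage markers were 708 to 2228 CPM in Q150X hearts and 511 to 863 CPM in wild-type hearts, and the fibroblast markers 3916 to 6148 CPM in Q150X hearts and 1796 to 3750.0 CPM in wild-type hearts, and their part was not tested.

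Of the companion genes at day 30, 2 of the 17 inputs of the interleukin-6, STAT3 and C/EBP list were lower in Q150X hearts than in wild-type hearts, beside 0.291% of all genes. None of the other 3 lists held a call. Il6, the cytokine gene, fell to 2.25 ± 0.93 CPM in Q150X hearts against 17.9 ± 10.3 CPM in wild-type hearts (SD, n = 4 and 3), a log2 difference of -3.17 ± 0.67 (edgeR adjusted p = 0.039). Bcl3, a nuclear cofactor of NF-kappaB, was at 15.99 ± 6.0 CPM in Q150X hearts and 84.3 ± 47.7 CPM in wild-type hearts, a difference of -2.56 ± 0.49 (edgeR adjusted p = 0.027). The Il6 call was lost in 9 of 15 alternatives and the Bcl3 call in 7 of 15, in both cases with only the groups compared, with no filter on low counts, with the replicate number as a block, and without library 1 or 3 of either genotype. Over homeostasis, 8 of 19 acute-phase companions rose and 1 fell in Q150X hearts of day 30, and 9 of 19 rose in wild-type hearts, beside the 15.6% and 5.45% of all genes called higher. Of the 17 inputs, 10 rose and 1 fell in Q150X and 9 rose and 1 fell in wild type, and of the 16 metal and peroxide genes, 5 rose and 2 fell in Q150X and 1 rose in wild type. Of the 12 receptors and partners, 4 rose in Q150X and 3 in wild type. Lbp, the lipopolysaccharide-binding protein, rose to 31.8 ± 5.3 CPM in Q150X hearts against 5.91 ± 1.91 CPM at homeostasis (2.15 ± 0.31, edgeR adjusted p = 0.00012). Socs3, a feedback inhibitor induced by STAT3, rose to 158 ± 43 CPM in wild-type hearts against 5.01 ± 3.24 CPM (4.99 ± 0.63, edgeR adjusted p = 0.00019). Between day 30 and day 7, Gclm and Cat, like Mt1, fell in Q150X hearts, and both fell in wild-type hearts as well, Gclm by 1.56 ± 0.15 in Q150X and by 1.27 ± 0.16 in wild type.

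In endothelial cells at day 3, Serpina3n, Lcn2, Saa3 and Hp rose over homeostasis in both genotypes, which is 4 of the 8 in each, beside 33.8% of 18223 genes called in Q150X and 9.52% in wild type. Over all genes 18.7% were called higher and 15.1% lower in Q150X, and 6.71% higher and 2.81% lower in wild type. Saa3 had 2020.0 and 170 CPM in Q150X EC against 13.4, 0.697 and 12.2 CPM at homeostasis, and 381 and 287 CPM in wild-type EC against 0.952, 5.97 and 0.516 CPM. Hp had 219 and 17.8 CPM in Q150X EC against 1.14, 0.992 and 0.663 CPM at homeostasis, and 73.0 and 59.9 CPM in wild-type EC against 0.420, 1.30 and 0.516 CPM. Every day 3 library was above homeostasis for both, and the 2 Q150X libraries lay on either side of the wild-type pair. The log2 fold changes of Saa3 were 7.45 ± 1.73 in Q150X (edgeR adjusted p = 0.014) and 7.21 ± 1.72 in wild type (edgeR adjusted p = 0.035), and those of Hp 7.50 ± 1.17 in Q150X (edgeR adjusted p = 0.0032) and 6.62 ± 1.14 in wild type (edgeR adjusted p = 0.0098). Without Q150X library 1 of day 3, Saa3 was at 3.88 in Q150X and not called (edgeR adjusted p = 0.059) and Hp was at 3.89 and called. Without library 2 they were at 8.36 ± 1.55 and 8.41 ± 0.36, both called, and each of these fits assumes that the library left varies like the other groups.

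Lcn2 had 400.4 and 23.5 CPM in Q150X EC against 9.19, 8.58 and 8.36 CPM at homeostasis, and 111 and 102 CPM in wild-type EC against 6.11, 6.16 and 6.45 CPM. Serpina3n had 64.5 and 11.9 CPM in Q150X EC against 7.59, 6.94 and 8.75 CPM, and 119 and 117 CPM in wild-type EC against 8.24, 9.59 and 7.84 CPM. Neither gene overlapped between the days, and library 1 of Q150X was far above library 2 in both. Lcn2 rose by 5.11 ± 1.03 in Q150X (edgeR adjusted p = 0.0084) and by 4.25 ± 1.002 in wild type (edgeR adjusted p = 0.034) on the log2 scale, and Serpina3n by 2.73 ± 0.70 in Q150X (edgeR adjusted p = 0.020) and by 3.94 ± 0.73 in wild type (edgeR adjusted p = 0.013). Without Q150X library 2 of day 3, which leaves 1 library there that is assumed to vary like the other groups, Serpina3n rose by 3.57 ± 0.16 and Lcn2 by 6.04 ± 0.12 in Q150X. Leaving out library 1 instead gave 0.23 for Serpina3n and 1.05 for Lcn2. The number of members called in wild-type EC was 4, and 0 or 1 when any 1 library of that comparison was left out.

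Mt1, Mt2, Clu and Gpx3 were not called in EC of either genotype with all libraries. Mt1 had 121 and 10.8 CPM in Q150X EC against 53.8 to 66.4 CPM at homeostasis, and 59.5 and 116 CPM in wild-type EC against 33.4 to 38.6 CPM. Clu had 122 and 25.02 CPM in Q150X EC against 286 to 397 CPM at homeostasis, and 416 and 172 CPM in wild-type EC against 303 to 339 CPM. Gpx3 had 70.7 and 10.7 CPM in Q150X EC against 34.0 to 95.9 CPM, and 143 and 150 CPM in wild-type EC against 59.2 to 81.6 CPM. The wild-type days did not overlap for Mt1 and Gpx3 and overlapped for Clu, and for all 3 genes library 2 of Q150X was the lowest of the 10 EC libraries. Clu in Q150X EC was at -1.72 ± 0.77 (edgeR adjusted p = 0.12), and in wild type at 0.03 ± 0.73 (edgeR adjusted p = 0.99). Without Q150X library 2, 6 of the 8 genes were called in Q150X EC and 7 in wild-type EC, all higher. Over all genes 37.5% were then called in Q150X and 35.7% in wild type, of all genes tested 18.9% higher in Q150X and 19.2% higher in wild type. Mt1 was then at 1.57 ± 0.28 in Q150X (edgeR adjusted p = 0.0016) and 1.41 ± 0.23 in wild type (edgeR adjusted p = 0.0012).

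Neutrophil markers and monocyte and macrophage markers were higher in EC libraries of day 3 in both genotypes, and fibroblast markers in wild type alone. The 8 neutrophil markers summed to 983 and 105 CPM in Q150X EC of day 3 and to 648 and 510 CPM in wild-type EC, against 1.503 to 5.59 CPM in Q150X EC and 2.45 to 4.49 CPM in wild-type EC at homeostasis. S100a9, 1 of the 8 neutrophil markers, was at 28.0 to 351 CPM in the 4 libraries of day 3 and at 0.413 to 1.11 CPM in the 6 of homeostasis. Monocyte and macrophage markers summed to 3603 and 4498 CPM in Q150X EC of day 3 and to 2825 and 3285 CPM in wild-type EC, against 87.7 to 188 CPM and 128 to 162 CPM at homeostasis. Neutrophils and macrophages are known sources of Lcn2, Hp and Saa3, and their part in the EC values was not tested. Fibroblast markers summed to 941 and 238 CPM in Q150X EC of day 3 and to 2072 and 2498 CPM in wild-type EC, against 662 to 946 CPM in Q150X EC and 895 to 1083 CPM in wild-type EC at homeostasis. Library 2 of Q150X was the lowest of the 4 day 3 libraries and the wild-type pair the highest. Serpina3n, Clu, Gpx3 and the summed endothelial markers all had that order, and the part of fibroblasts was not tested.

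**Figure D5:**
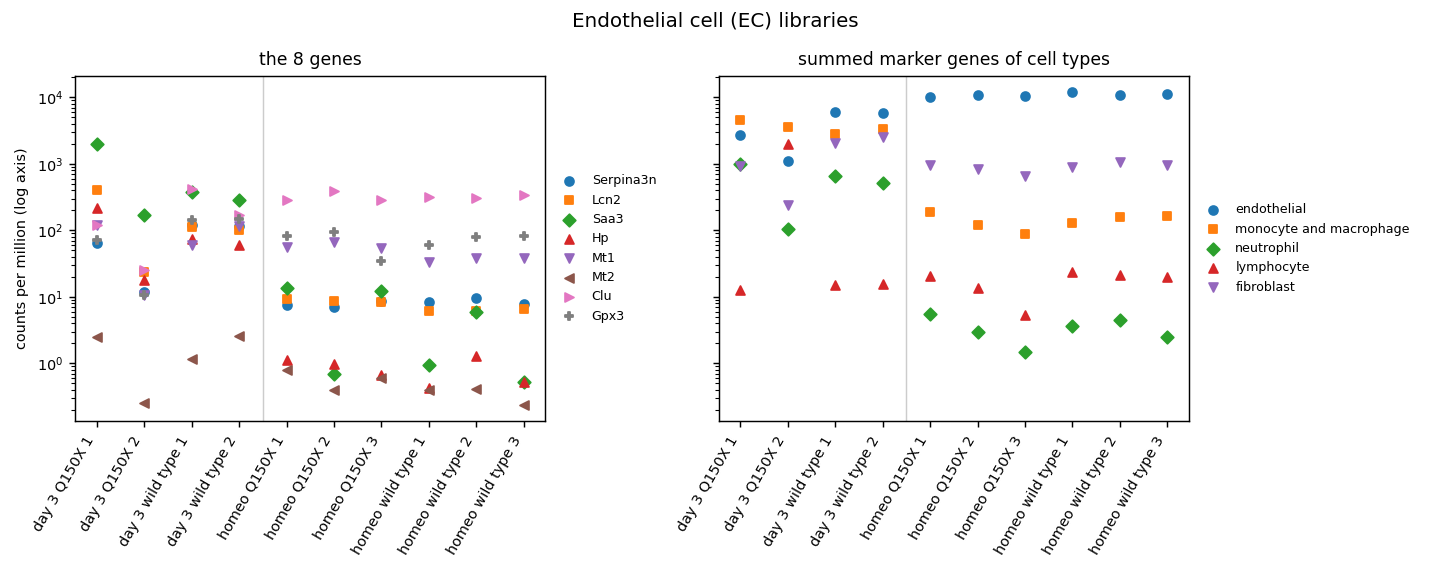
The 10 endothelial cell libraries, with the 8 genes at left and the summed markers of 5 cell types at right, in CPM on a log axis, and day 3 left of homeostasis. Q150X library 1 of day 3 has the highest Saa3, Lcn2 and Hp and the highest neutrophil sum of 983 CPM, and library 2 the lowest endothelial sum of 1118 CPM.

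Between genotypes in EC, none of the 8 genes was called at homeostasis or at day 3, and none in the interaction of genotype with MI, beside 0.0% of genes in each. The day 3 differences of Q150X from wild type ran from -1.70 ± 0.82 for Clu to 2.08 ± 1.63 for Saa3. They turned with the library left out: Lcn2 was at -2.70 without Q150X library 1 and at 2.30 without library 2, both called. At homeostasis Lcn2 (8.36 to 9.19 CPM in Q150X, 6.11 to 6.45 CPM in wild type) and Mt1 (53.8 to 66.4 CPM in Q150X, 33.4 to 38.6 CPM in wild type) did not overlap, with log2 differences of 0.50 ± 0.86 and 0.70 ± 0.79. The share of all genes free of overlap there was not counted. Unadjusted edgeR p-values under 0.05 were reached by 168 genes at homeostasis, 4223 at day 3 and 2291 in the interaction. DESeq2 called 1, 2335 and 478 genes in these 3 comparisons, voom none, and neither called a member.

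Among EC companions, 5 of 22 acute-phase genes rose and 5 fell in Q150X, and 3 rose and 1 fell in wild type. The Q150X shares lie near the 18.7% higher and 15.1% lower over all genes. In wild type 6.71% of all genes were called higher and 2.81% lower. Of the 12 receptors and partners, 6 rose and 2 fell in Q150X and 5 rose in wild type, and of the 17 inputs 5 rose and 5 fell in Q150X and 6 rose in wild type. Il6ra, the interleukin-6 receptor, rose to 80.3 ± 21.7 CPM in Q150X EC against 8.30 ± 2.82 CPM at homeostasis (3.37 ± 0.27, edgeR adjusted p = 0.00016) and to 47.9 ± 5.6 CPM in wild-type EC against 8.34 ± 0.36 CPM (2.67 ± 0.27, edgeR adjusted p = 0.0010), with n = 2 and 3 libraries. Lrp8, an apolipoprotein receptor known to bind clusterin, rose by 4.79 ± 0.38 in Q150X and by 3.59 ± 0.36 in wild type on the log2 scale. The plasma protease inhibitor gene A2m fell by 3.47 ± 0.53 in Q150X and by 2.22 ± 0.49 in wild type, the wild-type call being lost in 5 of 13 alternatives and the Q150X call in 1 of 13. Of the 16 metal and peroxide genes 2 rose and 3 fell in Q150X and 2 rose and 1 fell in wild type.

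Uninjured wild-type CM and EC, set side by side, differed in 5 of the 8 genes, beside 77.3% of 17158 genes called. Mt1 (68.4 to 101 CPM in CM, 33.4 to 38.6 CPM in EC), Mt2 (0.532 to 1.64 CPM in CM, 0.232 to 0.405 CPM in EC), Clu (465 to 538 CPM in CM, 303 to 339 CPM in EC) and Gpx3 were higher in CM, and Serpina3n (0.240 to 1.03 CPM in CM, 7.84 to 9.59 CPM in EC) was lower. The log2 differences of CM from EC were 2.63 ± 0.13 for Mt1, 2.81 ± 0.53 for Mt2, 2.01 ± 0.14 for Clu and -2.58 ± 0.38 for Serpina3n (edgeR, highest adjusted p = 0.00017), and these 4 calls held in all 13 alternatives. Antisense Gm45774 had 1.04 to 1.15 CPM in these CM and 0.135 to 0.361 CPM in these EC. Its part in the Mt2 difference cannot be told apart from Mt2 itself, and the alternatives used the same counts. The log2 differences depend on how the libraries are scaled: the median over all genes was -0.20 with the composition factor and -1.56 with library size alone. Over the 13 alternatives the lowest values were 1.28 for Mt1, 1.48 for Mt2 and 0.65 for Clu, and Serpina3n ranged from -3.93 to -2.24. Gpx3 was at 0.97 ± 0.29 (edgeR adjusted p = 0.0093), and at -0.40 with library size alone, where its CPM was 49.1 to 63.3 in CM and 59.2 to 81.6 in EC. Lcn2 was at 0.21 ± 0.42 and at -1.17 with library size alone, where it was called. Saa3 had 0 counts in CM and 0.516 to 5.97 CPM in EC and was not called (edgeR adjusted p = 0.081).

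Across the 14 groups the genes ranked differently by mean level. Serpina3n was highest in hearts of day 7 and day 30 (134 to 206 CPM) and lowest in CM at homeostasis, the order having a break without overlap only between wild-type hearts at homeostasis (4.45 to 13.7 CPM) and CM at homeostasis (0.240 to 1.03 CPM in wild type). Lcn2, Saa3 and Hp had their highest means in Q150X EC of day 3, 212 ± 267, 1095 ± 1308 and 118.5 ± 142 CPM (SD, n = 2), where the spread was wider than the mean. Clu was highest in CM of day 3 (2118 ± 346 CPM in Q150X, 2182 ± 146 CPM in wild type) and lowest in Q150X EC of day 3 (73.3 ± 68.3 CPM). Gpx3 was highest in Q150X hearts of day 7 (732 ± 224 CPM) and lowest in Q150X EC of day 3 (40.7 ± 42.4 CPM). Mt1 was highest in Q150X hearts of day 7 (295 ± 53 CPM) and lowest in wild-type EC of homeostasis (36.7 ± 2.9 CPM).

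The genes most like each member over the 14 group means, by Pearson correlation of log2(CPM + 0.5) among 11474 genes, fell into different kinds. Serpina3n went with Timp1 (r = 0.95), a secreted inhibitor of matrix metalloproteinases, and with the collagen genes Col1a1 and Col3a1. Lcn2 went with Spp1 (r = 0.96), Adam8 and Hmox1. Saa3 and Hp shared Fcgr4, an immunoglobulin receptor of myeloid cells (r = 0.97 with Saa3 and 0.96 with Hp), and Hp was also like the mesothelial gene Msln (r = 0.95). Clu went with Fhl1 (r = 0.97), a muscle LIM-domain gene, and Gpx3 with the proteasome subunit genes Psmc3 (r = 0.95), Psmd7 and Psmc2. Mt1 went with Herpud1 (r = 0.87), a gene of the endoplasmic reticulum stress response, and the best value of Mt2 was 0.78, with Nt5e. The 14 points share tissues and libraries, so these values describe a pattern and carry no p.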

How the data were processed

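Bulk RNA-seq was deposited as 1 table of whole-number read counts per gene for 43 libraries, raw counts as the authors deposited them. Per the submitters' processing notes, GRCm39, HISAT2 and kallisto were used; versions, the role of each tool, and whether counting used strand are not stated in the labels. Of 57010 identifiers, 52029 matched a symbol in the gene name table. Library totals ran from 25035490 to 45243608 counts, and precision at low counts is limited by counting error.

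Each compartment was fitted by itself with edgeR 4.0.16 (quasi-likelihood, robust, R 4.3.3) with TMM composition factors, 1 mean per group, and genes kept by filterByExpr (minimum count 10, minimum total 15). CM and EC at homeostasis were fitted together for the comparison between them. Alternatives were DESeq2 1.42.0, voom with library weights (limma 3.58.1), DESeq2 size factors in edgeR, library size alone, no filter, only the groups compared, the replicate number as a block, without the libraries that stood apart, and each library left out in turn. The fits were also run on simulated counts with known changes. Those counts held no libraries that stood apart, and changes were set only in genes above a minimum mean level. The simulation therefore does not show how the fits behave with such libraries or at low counts. Tables and figures were made with Python 3.11.15, pandas 2.3.3, numpy 2.4.6, scipy 1.17.1 and matplotlib 3.10.9.

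The 8 genes, the companion and marker lists and the set of libraries left out were chosen with earlier results of these data known. Named genes were the 8 members and, per comparison and direction, up to 3 called companions with the smallest p, of which some are given, plus the 3 genes of most similar pattern per member. No 2 libraries of a group held identical counts in 47 pairs. Same-numbered libraries deviated together in homeostasis hearts (r = 0.70, 0.52 and 0.57 over genes), so the numbers were taken to pair the samples there, from the data and not from the labels. For numbers 1 and 3 the highest r was with the same number, but for number 2 it was not, which leaves the pairing uncertain. In no other state was every r over 0.1.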

Additional observations from a re-analysis of the deposited data

Results flagged for a closer look

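In groups of 4 heart libraries, 5 values stood far from the rest of their group, judged by the gap to the nearest library as a share of the group's range. The check covered 24 sets of values, the 8 genes in each of the 3 heart groups of 4 libraries, and chance alone marks about 1 in 20 such sets. The sets of a group share its libraries. Serpina3n was at 199.4 CPM in library 4 of Q150X hearts at day 30, against 159 to 163 CPM in the other 3. The remaining 4 values came from the libraries numbered 2 of Q150X hearts. At day 7 library 2 had 617.2 CPM of Saa3 and 347.8 CPM of Hp, and it also had the highest neutrophil marker sum of its group, 44.7 CPM against 3.43 to 10.2 CPM. At day 30 library 2 had 298.2 CPM of Saa3 and 166.1 CPM of Hp, beside an epicardial and mesothelial marker sum of 416 CPM against 64.9 to 207 CPM in the other 3. The part of those cells in these values was not tested.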

How the results depend on the processing

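Of the single-gene values recomputed under another setting, 914 kept their direction and side of the threshold, 85 became called, 80 lost a call, 31 changed sign and 6 moved by more than the replicate spread. Counts of called members were as follows. In hearts at day 7, Q150X gave 4, with 8 without the libraries that stood apart, 2 with only the groups compared and 4 to 8 with 1 library left out. Wild type gave 5, with 2 without a filter and 2 to 4 with 1 library left out. At day 30, Q150X gave 2, with 4 by voom, 8 without the libraries that stood apart and 2 to 6 with 1 left out, and wild type gave 3, with 5 without the libraries that stood apart and 2 to 3 with 1 left out. Day 30 against day 7 in wild type gave 0, and 1 both without the libraries that stood apart and with only the groups compared. Q150X against wild type at day 30 gave 1, with 2 by DESeq2, by voom and without the libraries that stood apart, 0 without a filter and with only the groups compared, and 0 to 1 with 1 left out. The interaction at day 30 gave 0, and 1 by DESeq2. In EC, Q150X gave 4, with 2 by voom, 0 with only the groups compared and 3 to 6 with 1 left out, and wild type gave 4, with 2 without a filter, 7 by voom, with only the groups compared and without the libraries that stood apart, and 0 to 1 with 1 left out. EC genotype at day 3 gave 0, with 2 without the libraries that stood apart and 0 to 7 with 1 left out, and the EC interaction 0, with 1 and 0 to 7. CM at day 3 gave 5 in each genotype, with 5 to 6 with 1 left out, and CM against EC gave 5, with 4 to 6. The cause of these moves was not tested.

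With the replicate number as a block, the calls went to 0 for genotype in hearts at day 30, to 2 for Q150X EC and to 1 for wild-type EC. In homeostasis hearts, where the numbers were taken to pair the samples, no member was called with or without the block.

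Signs turned for small or library-bound values; ranges are over fits with 1 library left out. In Q150X hearts of day 30, Clu ranged from -0.037 to 1.05 (-0.036 without homeostasis library 2), Mt1 from -0.0065 to 0.88 and Mt2 from -1.39 to 0.18. In Q150X EC, Mt1 was at -0.80 by voom and ranged from -2.82 to 1.57, Mt2 from -1.63 to 2.59 and Gpx3 from -3.09 to 0.54. For EC genotype at day 3, Lcn2 was at -0.15 by voom and ranged from -2.70 to 2.30, Hp was at -0.17 and ranged from -2.41 to 2.11, Mt1 ranged from -3.54 to 0.85 (0.51 without wild-type library 2) and Mt2 from -3.39 to 0.83 (0.60). In the EC interaction, Lcn2 was at -0.64 by voom and ranged from -3.20 to 1.80, Hp was at -0.53 and ranged from -2.74 to 1.80, Mt1 ranged from -4.24 to 0.16 and Mt2 from -4.21 to 0.014. The lowest EC values came without Q150X library 1 of day 3 and the highest without library 2, which is also the setting without the libraries that stood apart. For CM against EC, Lcn2 was at -1.17 with library size alone and at -0.03 and -0.17 without CM library 2 or 3, its highest value being 0.65, and Gpx3 at -0.40 with library size alone, where 2913 genes were called higher and 11786 lower, against 6129 and 7139 with the composition factor. In Q150X hearts library size alone gave 3979 higher and 1165 lower calls at day 7, against 2454 and 2187, and 4194 and 962 at day 30, against 2780 and 2527.

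Counts over all genes moved by over 1.5 times in most comparisons. The calls ranged from 2247 to 6250 at day 7 in Q150X hearts (4641 as reported), from 1430 to 5896 in wild-type hearts (2448), from 3247 to 8989 at day 30 in Q150X (5307), from 437 to 7185 in wild type (1594), from 855 to 12002 in Q150X EC (6159), from 442 to 7652 in wild-type EC (1734) and from 0 to 1751 for genotype in hearts at day 30 (79). Between day 30 and day 7 the highest counts were 8625 in wild type (5354) and 8213 in Q150X (5603), both by voom. Genotype in EC ranged from 0 to 10498 at day 3 and 0 to 8765 in the interaction, and genotype in CM from 0 to 543 at homeostasis and 0 to 8 at day 3. Groups of 2 to 4 libraries and Mt2 levels of 0 to 4.06 CPM limit what can be resolved.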
